A study of Mus musculus with 10 samples.

Results

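The 10 genes described here encode subunits of the mouse SWI/SNF chromatin remodelling complexes: Smarca2, Smarca4, Arid1a, Arid1b, Arid2, Pbrm1, Smarcc1, Smarcc2, Smarcd1 and Smarcd3. They were chosen by symbol, with earlier results of these data known, from the deposited count table of 23337 genes. All 10 were present and abundant enough to be tested among 14548 genes. SWI/SNF complexes use the energy of ATP to slide and evict nucleosomes and so open DNA to transcription factors. A complex holds 1 ATPase, which is either SMARCA4 (also called BRG1) or its paralogue SMARCA2 (BRM), on a core with SMARCC and SMARCD subunits. ARID1A or ARID1B marks the canonical BAF form, and ARID2 with PBRM1 marks the PBAF form. In mouse embryonic stem cells the complex is known to be built on SMARCA4 and to be rich in SMARCC1, whereas SMARCA2 and SMARCC2 enter complexes of more differentiated cells.

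RNA was sequenced in bulk from embryoid bodies, which are aggregates of differentiating mouse embryonic stem cells. The series names its cells iHA-Etv2, a line in which doxycycline induces HA-tagged Etv2, an ETS transcription factor needed for blood and endothelial precursors. The 5 groups of 2 libraries were Flk1-positive samples treated with doxycycline at day 2.5, doxycycline-treated samples at day 2.5, untreated samples at day 2.5, doxycycline-treated samples at day 2 and untreated samples at day 2. Kdr encodes Flk1, a surface receptor that marks blood and endothelial precursors. For the 8 libraries that are marked as not Flk1-positive, no label tells if a sort was made. All groups carry the transgene, the hour at which doxycycline was added is not given in the sources used here, and no label states that replicates were separate cultures. The p-values below therefore reflect the spread between these libraries alone, and that spread may be technical.

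Total counts ranged from 18074070 to 36068329 per library. Etv2 averaged 313 and 263 CPM (read counts relative to scaled library size) in Flk1-positive and doxycycline-treated samples at day 2.5, against 7.04 CPM in untreated samples, and 455 CPM with doxycycline at day 2, against 16.9 CPM without it. The counts do not separate transgenic from endogenous Etv2. Kdr averaged 997 CPM in Flk1-positive samples and 419 CPM in doxycycline-treated samples, against 7.23 CPM in untreated samples of day 2.5. The doxycycline-treated pair at day 2 stood apart from the rest: between its replicates the chi-square, which sets differences against counting noise, reached 33.9 per gene, whereas the other pairs gave 3.40 to 10.04. Their difference had a rank correlation across genes of -0.45 with exon length, against -0.12 to 0.08 in the other pairs. The median of the 10 members was 0.27 lower on the log2 scale in replicate 1 than in replicate 2 of that pair. A trend along GC content was not limited to that pair. The rank correlation of the replicate difference with GC content was 0.37 in the Flk1-positive pair and 0.32 in the doxycycline-treated pair of day 2. In the other pairs it was -0.03 to 0.02.

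The DNA before an annotated RefSeq start is shown for the ATPase pair and the SMARCC pair, because the results turn on the changing balance within each. The sequences are the 250 bases before that start in GRCm38.p6, written 5′ to 3′ on the strand of the gene. ETS factors recognise DNA with a GGAA core, and capitals mark each GGAA or its complement TTCC.
Smarca2 (chr19:26604910-26605159, plus strand): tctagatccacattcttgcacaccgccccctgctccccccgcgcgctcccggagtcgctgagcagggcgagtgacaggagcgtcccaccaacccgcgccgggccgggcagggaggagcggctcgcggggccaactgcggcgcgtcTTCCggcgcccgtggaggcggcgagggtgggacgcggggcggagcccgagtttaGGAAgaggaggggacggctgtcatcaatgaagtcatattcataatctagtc
Smarca4 (chr9:21615919-21616168, plus strand): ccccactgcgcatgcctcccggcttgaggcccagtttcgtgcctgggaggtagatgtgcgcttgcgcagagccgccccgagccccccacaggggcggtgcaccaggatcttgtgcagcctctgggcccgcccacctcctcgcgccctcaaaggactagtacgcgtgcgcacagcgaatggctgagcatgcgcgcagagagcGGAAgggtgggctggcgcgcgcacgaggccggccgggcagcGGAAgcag
Smarcc2 (chr10:128458986-128459235, plus strand): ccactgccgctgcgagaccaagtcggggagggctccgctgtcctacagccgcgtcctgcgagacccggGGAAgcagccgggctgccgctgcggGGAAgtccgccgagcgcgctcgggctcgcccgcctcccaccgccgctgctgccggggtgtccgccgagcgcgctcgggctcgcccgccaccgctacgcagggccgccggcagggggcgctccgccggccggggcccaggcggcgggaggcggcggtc
Smarcc1 (chr9:110131774-110132023, plus strand): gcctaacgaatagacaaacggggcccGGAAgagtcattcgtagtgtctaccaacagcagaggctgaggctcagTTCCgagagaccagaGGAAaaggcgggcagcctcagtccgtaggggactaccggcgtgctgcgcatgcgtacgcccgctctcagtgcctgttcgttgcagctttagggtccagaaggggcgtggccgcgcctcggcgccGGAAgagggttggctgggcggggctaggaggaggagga
GENCODE starts some of these genes elsewhere: the whole Smarcc1 window and the last 110 bases of the Smarca2 window lie inside the gene spans given for them below, while the Smarca4 and Smarcc2 windows lie before theirs. RefSeq gave such a window for 9 of the 10 members, with 10 windows in all, and all 9 genes held a GGAA on either strand. That motif is common, and 93.4% of 32851 promoter windows of the same length held it. The longer CCGGAA, which contains the shorter motif, was found on either strand in windows of 5 of these 9 members and in 12.03% of all windows. For both motifs the members were counted by gene and the background by window. GC content was not matched, and no difference from the background was tested. The Smarca2 window held 2 GGAA matches, and 1 of them, 105 bases before the start, was part of a CCGGAA. The Smarca4 window held 2 GGAA matches and 0 CCGGAA, the Smarcc2 window 2 and 0, and the Smarcc1 window 4 and 2. A match describes letters in the window and not the binding of a factor.

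Smarca2 (chromosome 19, 26605050 to 26778322, plus strand, GRCm38) differed more between treated and untreated samples of day 2.5 than any other member. It had 3071 and 2520 reads, or 127 and 134 CPM, in the Flk1-positive libraries. In doxycycline-treated libraries of day 2.5 it had 3865 and 3776 reads, or 106 and 109 CPM, against 202 and 257 reads, or 8.79 and 10.6 CPM, in untreated libraries. At day 2 it had 9.54 and 11.5 CPM with doxycycline, against 9.44 and 7.91 CPM in untreated libraries. The 4 treated libraries of day 2.5 were high, and the other 6 lay between 7.91 and 11.5 CPM. Among those 6, the treated libraries of day 2 lay just above the untreated ones of the same day, and the untreated libraries of day 2.5 overlapped both.

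The log2 fold change of Smarca2 was 3.74 ± 0.13 (SE) in Flk1-positive against untreated samples, with an adjusted p of 4.04e-12 in edgeR's quasi-likelihood test with Benjamini-Hochberg adjustment. It was 3.47 ± 0.13 in doxycycline-treated against untreated samples at day 2.5 (adjusted p = 2.75e-11, edgeR). Both comparisons share the untreated samples. The p-values of Smarca2, here and below, do not account for the choice of members with earlier results of these data known. Between Flk1-positive and doxycycline-treated samples it was 0.27, with a 95% interval of 0.04 to 0.51, and missed the threshold (adjusted p = 0.061, edgeR), although the libraries did not overlap. This value passed in limma-voom (adjusted p = 0.0213) and in edgeR without both doxycycline-treated libraries of day 2, and its adjusted p ranged from 0.0017 to 0.246 over the alternatives.

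Smarca2 was compared over time as well. At day 2 Etv2 had 507 and 403 CPM with doxycycline and 15.8 and 18.1 CPM without, while the log2 fold change of Smarca2 was 0.27 with a 95% interval of -0.04 to 0.57 (adjusted p = 0.376, edgeR). With doxycycline, Smarca2 rose 10.2-fold at day 2.5 over day 2 (log2 3.36 ± 0.13, adjusted p = 1.81e-10, edgeR). Without it, the log2 difference between the days was 0.16, with an interval of -0.14 to 0.46 (adjusted p = 0.473, edgeR). The effect of doxycycline was larger at day 2.5 than at day 2 by 3.20 ± 0.19 on the log2 scale (adjusted p = 6.2e-08, edgeR).

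Markers of blood and endothelial precursors moved in the same libraries. The summed level of 11 such genes was 3390 to 3513 CPM in Flk1-positive libraries and 1356 to 1412 CPM in doxycycline-treated libraries of day 2.5, against 23.7 to 25.1 CPM in untreated ones. Kdr, which encodes Flk1, is among these genes, so the sum is not independent of the Flk1-positive label. At day 2 the sum was 260 to 298 CPM with doxycycline, against 65.0 to 68.0 CPM without, so the sum was higher there too. The single genes were mixed at day 2. Of 10 tested, 5 were called higher and 0 lower in edgeR, and 4 had a negative log2 fold change. Of all genes tested, 3.11% were called higher and 1.56% lower there. Emcn, a marker of mature endothelium, was at 0 in both untreated groups and in the doxycycline-treated libraries of day 2. Summed primitive streak and mesoderm markers (8 genes) were 775 to 812 CPM in Flk1-positive and 859 to 894 CPM in doxycycline-treated libraries, against 2738 to 3127 CPM in untreated libraries of day 2.5. Between these treated groups, 3 of the 8 genes were called higher and 5 lower in Flk1-positive samples (edgeR), beside 20.5% and 21.3% of all genes. Summed pluripotency markers (8 genes) were 856 to 920 CPM and 1068 to 1095 CPM in these treated groups, against 1989 to 2055 CPM. Of these 8 genes, 1 was called higher and 5 lower in Flk1-positive against untreated samples, beside 28.6% and 26.6% of all genes. In doxycycline-treated against untreated samples of day 2.5 it was 1 and 4, beside 16.1% and 13.8%. Fibroblast markers (7 genes) stayed within 21.1 to 40.1 CPM in all libraries. Leukocyte markers (5 genes) were 86.4 to 102 CPM, 61.3 to 61.8 CPM and 20.7 to 20.8 CPM in the same order of groups, and Ptprc, which defines leukocytes, was at 0 in all 4 treated libraries of day 2.5. Endoderm markers (7 genes: Sox17, Foxa2, Gata6, Sox7, Afp, Ttr and Cxcr4) were 278 to 293 CPM, 117 to 127 CPM and 49.2 to 50.3 CPM in that order, with Afp at 0 in all libraries of day 2.5. These genes did not all move the same way, and a higher sum does not by itself show more endoderm cells. Of 5 tested, 4 rose and 1 fell in Flk1-positive against untreated samples (edgeR), where 28.6% of all genes were called higher and 26.6% lower. In doxycycline-treated against untreated samples of day 2.5, 3 rose and 1 fell, beside 16.1% and 13.8% of all genes. Neuroectoderm markers (6 genes) were 249 to 269 CPM, 331 to 342 CPM and 283 to 307 CPM. These sums hide larger changes of single genes. The median log2 fold change of the 4 tested neuroectoderm genes was 1.24 in doxycycline-treated against untreated samples of day 2.5. It was -1.23 in Flk1-positive against doxycycline-treated samples and -0.12 in Flk1-positive against untreated samples. In bulk samples a different share of cells and a different amount of RNA per cell cannot be told apart, and the part of these markers in the Smarca2 values was not tested.

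Smarca4 (chromosome 9, 21616169 to 21704230, plus strand) had 619 and 555 CPM in Flk1-positive libraries and 675 and 696 CPM in doxycycline-treated libraries, against 660 and 676 CPM in untreated libraries of day 2.5. Doxycycline-treated and untreated libraries overlapped, and Flk1-positive libraries lay below both. For doxycycline the log2 fold change at day 2.5 was 0.04 with a 95% interval of -0.15 to 0.23 (adjusted p = 0.784, edgeR), so changes within that interval remain possible. In Flk1-positive samples it was -0.23 against doxycycline-treated samples, with an interval of -0.41 to -0.04 (adjusted p = 0.0518, edgeR), and -0.19 against untreated samples (adjusted p = 0.0843, edgeR). Without both doxycycline-treated libraries of day 2 both of these passed the threshold, and over the alternatives their adjusted p ranged from 0.000917 to 0.35 and from 0.000197 to 0.297. At day 2 Smarca4 had 530 and 598 CPM with doxycycline, against 602 and 620 CPM without. With doxycycline it rose at day 2.5 over day 2 by 0.28 ± 0.09 on the log2 scale (adjusted p = 0.0162, edgeR). That call was lost without either doxycycline-treated library of day 2.5 (adjusted p = 0.077 and 0.113), with the compared groups fitted alone (0.0714) and with length and GC trends removed (0.119, the highest over the alternatives).

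**Figure D1:**
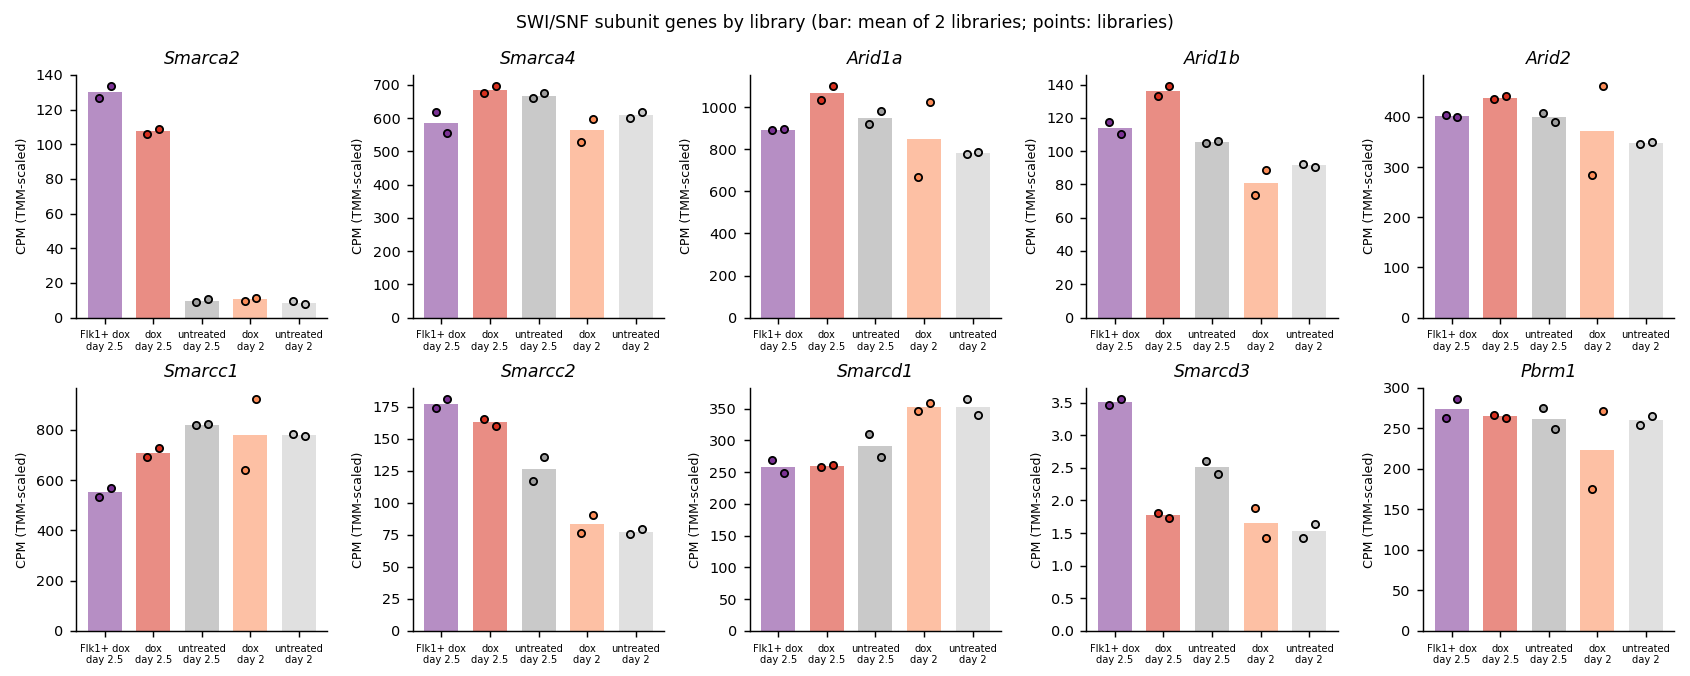
Level of each member in each library (points, 2 per group) with a bar from 0 to the group mean, in CPM on a linear axis scaled to each gene, for Flk1-positive, doxycycline-treated and untreated samples of day 2.5 and doxycycline-treated and untreated samples of day 2. Smarca2 sits at 106 to 134 CPM in the 4 treated libraries of day 2.5 and at 7.91 to 11.5 CPM in the other 6.

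Per kb of exon, Smarca2 had 8.89 and 9.36 CPM in Flk1-positive libraries and 7.44 and 7.64 CPM in doxycycline-treated libraries of day 2.5, against 0.616 and 0.746 CPM in untreated ones. On this scale Smarca4 had 95.5 and 85.7 CPM in Flk1-positive and 104 and 108 CPM in doxycycline-treated libraries, against 102 and 104 CPM in untreated ones. Smarca4 thus stayed the more abundant ATPase transcript in every library. Of the summed level of the pair, Smarca2 made up 9.18% ± 0.94 (SD, n = 2) in Flk1-positive samples and 6.65% ± 0.02 in doxycycline-treated samples, against 0.655% ± 0.078 in untreated samples of day 2.5. At day 2 it made up 0.838% ± 0.038 with doxycycline, against 0.641% ± 0.093 without. The shares depend on the length used, since the Smarca2 exons sum to 14269 bases and its longest transcript to 5921. With the longest transcripts they were 19.3% and 14.5% in Flk1-positive and doxycycline-treated samples, against 1.54% in untreated samples of day 2.5. The fold difference between groups does not depend on the length used as divisor. Smarca2 over Smarca4 was 15.3-fold higher in Flk1-positive and 10.8-fold higher in doxycycline-treated samples than in untreated samples of day 2.5. It was 1.31-fold higher with doxycycline than without at day 2. With length and GC trends removed per library, these values were 15.4, 10.4 and 1.38. With 2 samples against 2, an exact permutation test of such a ratio cannot go below p = 0.33, and none was run.

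**Figure D2:**
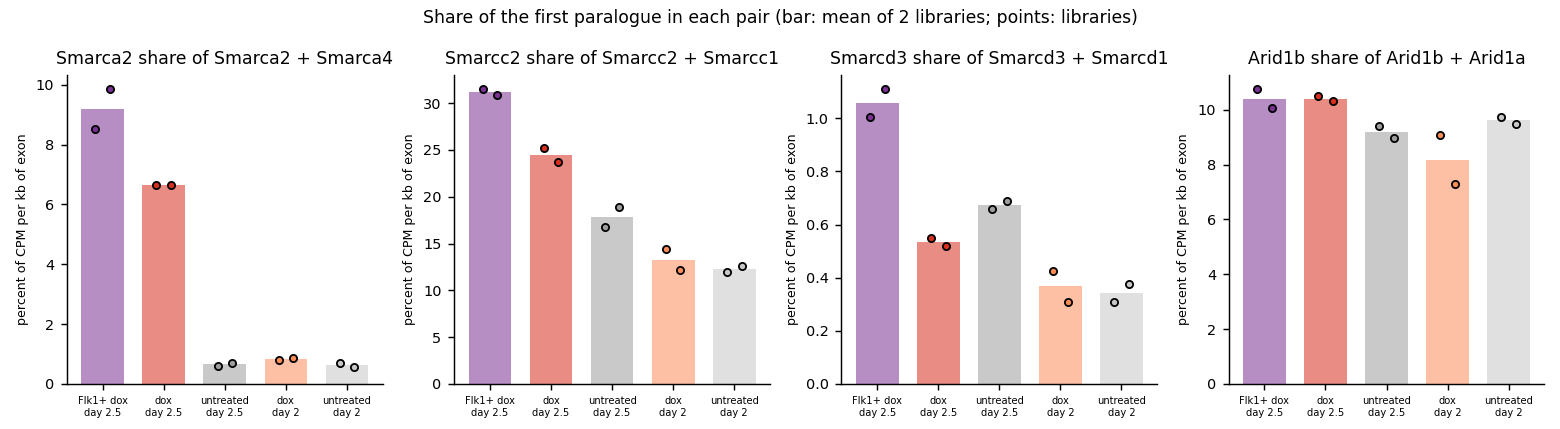
Share of the first paralogue in the summed level of its pair (percent, from CPM per kb of total exon length), with 1 point per library and a bar from 0 to the group mean. The Smarca2 share is 9.18% in Flk1-positive and 6.65% in doxycycline-treated samples of day 2.5 and under 1% in the other 3 groups, and the Smarcc2 share is highest in the Flk1-positive samples.

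The SMARCC subunits are paired scaffold proteins of the core. Smarcc1 (chromosome 9, 110117708 to 110240178, plus strand) had 533 and 571 CPM in Flk1-positive libraries and 692 and 727 CPM in doxycycline-treated libraries, against 818 and 822 CPM in untreated libraries of day 2.5. The 3 groups did not overlap. Smarcc1 fell by 0.57 ± 0.12 on the log2 scale in Flk1-positive against untreated samples (adjusted p = 0.00115, edgeR). It fell by 0.36 ± 0.12 in Flk1-positive against doxycycline-treated samples (adjusted p = 0.0285, edgeR), and this call was lost without any 1 of the 4 compared libraries (adjusted p 0.0839 to 0.19). In doxycycline-treated against untreated samples the log2 fold change was -0.21 (adjusted p = 0.229, edgeR). That last value passed the threshold without both doxycycline-treated libraries of day 2, with the compared groups fitted alone (0.0118) and with length and GC trends removed (0.00764), and ranged from 0.00555 to 0.424 over the alternatives.

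Smarcc2 (chromosome 10, 128459248 to 128490482, plus strand) had 174 and 181 CPM in Flk1-positive libraries and 165 and 160 CPM in doxycycline-treated libraries, against 117 and 136 CPM in untreated libraries of day 2.5. Both treated groups lay above the untreated one. Smarcc2 rose by 0.49 ± 0.10 on the log2 scale in Flk1-positive against untreated samples (adjusted p = 0.000798, edgeR) and by 0.36 ± 0.10 in doxycycline-treated against untreated samples (adjusted p = 0.0125, edgeR). The second call was lost without either doxycycline-treated library (adjusted p = 0.141 and 0.06) and without replicate 1 of the untreated libraries (0.153, the highest over the alternatives). Smarcc2 also rose with time alone. It had 76.3 and 90.4 CPM with doxycycline and 75.2 and 79.1 CPM without at day 2. At day 2.5 it was higher than at day 2 by 0.96 ± 0.10 on the log2 scale in doxycycline-treated samples (adjusted p = 3.72e-06, edgeR) and by 0.71 ± 0.10 in untreated samples (adjusted p = 0.000493, edgeR). The difference between these day effects was 0.25 with an interval of -0.05 to 0.56 (adjusted p = 0.285, edgeR).

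Per kb of exon, Smarcc2 made up 31.2% ± 0.44 (SD, n = 2) of the SMARCC pair in Flk1-positive and 24.4% ± 1.08 in doxycycline-treated samples, against 17.8% ± 1.54 in untreated samples of day 2.5. At day 2 the share was 13.3% ± 1.58 with doxycycline, against 12.3% ± 0.46 without. Smarcc2 over Smarcc1 was 2.09-fold higher in Flk1-positive and 1.49-fold higher in doxycycline-treated than in untreated samples of day 2.5. It was 1.55-fold higher at day 2.5 than at day 2 in untreated samples. At day 2 the ratios of treated and untreated libraries overlapped.

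The ARID1 subunits mark canonical BAF, and ARID2 with PBRM1 marks PBAF. Arid1b (chromosome 17, 4994332 to 5347656, plus strand) had 118 and 110 CPM in Flk1-positive libraries and 133 and 139 CPM in doxycycline-treated libraries, against 105 and 106 CPM in untreated libraries of day 2.5. The doxycycline-treated libraries were the highest, and no groups of that day overlapped. Arid1b rose by 0.37 ± 0.10 on the log2 scale in doxycycline-treated against untreated samples (adjusted p = 0.00901, edgeR), a call lost without any 1 of these 4 libraries (adjusted p 0.0507 to 0.0876). It fell by 0.26 ± 0.10 in Flk1-positive against doxycycline-treated samples (adjusted p = 0.0434, edgeR), a call lost with DESeq2 size factors (adjusted p = 0.0556), in DESeq2 (0.0619) and without any 1 of the 8 libraries other than the doxycycline-treated ones of day 2, with adjusted p up to 0.24. At day 2 it had 73.5 and 88.6 CPM with doxycycline, against 92.2 and 90.6 CPM without. With doxycycline it rose at day 2.5 over day 2 by 0.75 ± 0.10 (adjusted p = 2.4e-05, edgeR). The effect of doxycycline was larger at day 2.5 than at day 2 by 0.54 ± 0.14 on the log2 scale (adjusted p = 0.0177, edgeR), and that call was lost without any 1 of the untreated libraries of either day or of the doxycycline-treated libraries of day 2.5 (adjusted p 0.0599 to 0.0954).

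Arid1a (chromosome 4, 133679008 to 133756769, minus strand) had 890 and 895 CPM in Flk1-positive and 1036 and 1101 CPM in doxycycline-treated libraries, against 919 and 982 CPM in untreated libraries of day 2.5. The Flk1-positive libraries were the lowest of the day and the doxycycline-treated the highest, but 0 of the comparisons called it, and the log2 fold change was -0.26 between Flk1-positive and doxycycline-treated samples (adjusted p = 0.149, edgeR). Per kb of exon, Arid1b made up 10.4% ± 0.48 (SD, n = 2) of the ARID1 pair in Flk1-positive and 10.4% ± 0.12 in doxycycline-treated samples, against 9.18% ± 0.31 in untreated samples of day 2.5. Arid2 (chromosome 15, 96287518 to 96404992, plus strand), which joins PBAF, had 404 and 400 CPM in Flk1-positive and 435 and 443 CPM in doxycycline-treated libraries, against 408 and 390 CPM in untreated libraries. Pbrm1 (chromosome 14, 31019138 to 31121592, plus strand), the bromodomain subunit of PBAF, had 263 and 286 CPM and 267 and 263 CPM in these treated groups, against 275 and 249 CPM. The Flk1-positive and untreated libraries overlapped for Arid2, with the doxycycline-treated ones above them, and all 3 groups overlapped for Pbrm1. Neither PBAF gene was called in any of the 7 comparisons. At day 2 the doxycycline-treated pair was wide for these genes: Arid2 had 284 and 461 CPM with doxycycline, against 345 and 350 CPM without, and Pbrm1 had 175 and 271 CPM with doxycycline, against 255 and 266 CPM without.

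The SMARCD subunits bridge the core to transcription factors. Smarcd1 (chromosome 15, 99702129 to 99713991, plus strand) had 268 and 249 CPM in Flk1-positive and 258 and 261 CPM in doxycycline-treated libraries, against 310 and 273 CPM in untreated libraries of day 2.5. At day 2 it had 347 and 360 CPM with doxycycline, against 364 and 341 CPM without. All 4 libraries of day 2 thus exceeded the 6 of day 2.5, and within day 2.5 both treated groups lay below the untreated one. The treated groups were not called against it (log2 -0.17 in each, adjusted p = 0.112 in Flk1-positive and 0.172 in doxycycline-treated samples, edgeR). Smarcd1 fell by 0.45 ± 0.09 on the log2 scale at day 2.5 against day 2 with doxycycline (adjusted p = 0.000844, edgeR). In untreated samples it fell by 0.27 ± 0.09 (adjusted p = 0.0418, edgeR), a call lost with DESeq2 size factors (0.0524), with no filter on low counts (0.065) and without 7 of the 10 libraries 1 at a time, with adjusted p up to 0.318. The difference between these day effects was not called (log2 -0.17, adjusted p = 0.415, edgeR).

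Smarcd3 (chromosome 5, 24590818 to 24624411, minus strand), the subunit known from cardiac and muscle cells, was close to the low end of what was measured. It had 84 and 67 reads, or 3.47 and 3.55 CPM, in Flk1-positive libraries and 66 and 60 reads, or 1.81 and 1.73 CPM, in doxycycline-treated libraries, against 60 and 58 reads, or 2.61 and 2.40 CPM, in untreated libraries of day 2.5. The Flk1-positive libraries were the highest and the doxycycline-treated the lowest of that day. Smarcd3 rose by 0.98 ± 0.31 on the log2 scale in Flk1-positive against doxycycline-treated samples (adjusted p = 0.0205, edgeR), and the call was lost without any 1 of these 4 libraries (adjusted p 0.0734 to 0.0986). Against untreated samples the log2 fold change was 0.48 in Flk1-positive (adjusted p = 0.204, edgeR) and -0.50 in doxycycline-treated samples (adjusted p = 0.263, edgeR). Of the Smarcd3 exon bases, 48.2% overlap Chpf2 on the opposite strand and Mir671, and the strand setting of the counting is not given in the sources used here, so reads of these genes cannot be told apart. Per kb of exon, Smarcd3 made up 1.06% of the pair with Smarcd1 in Flk1-positive and 0.535% in doxycycline-treated samples, against 0.673% in untreated samples of day 2.5.

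**Figure D3:**
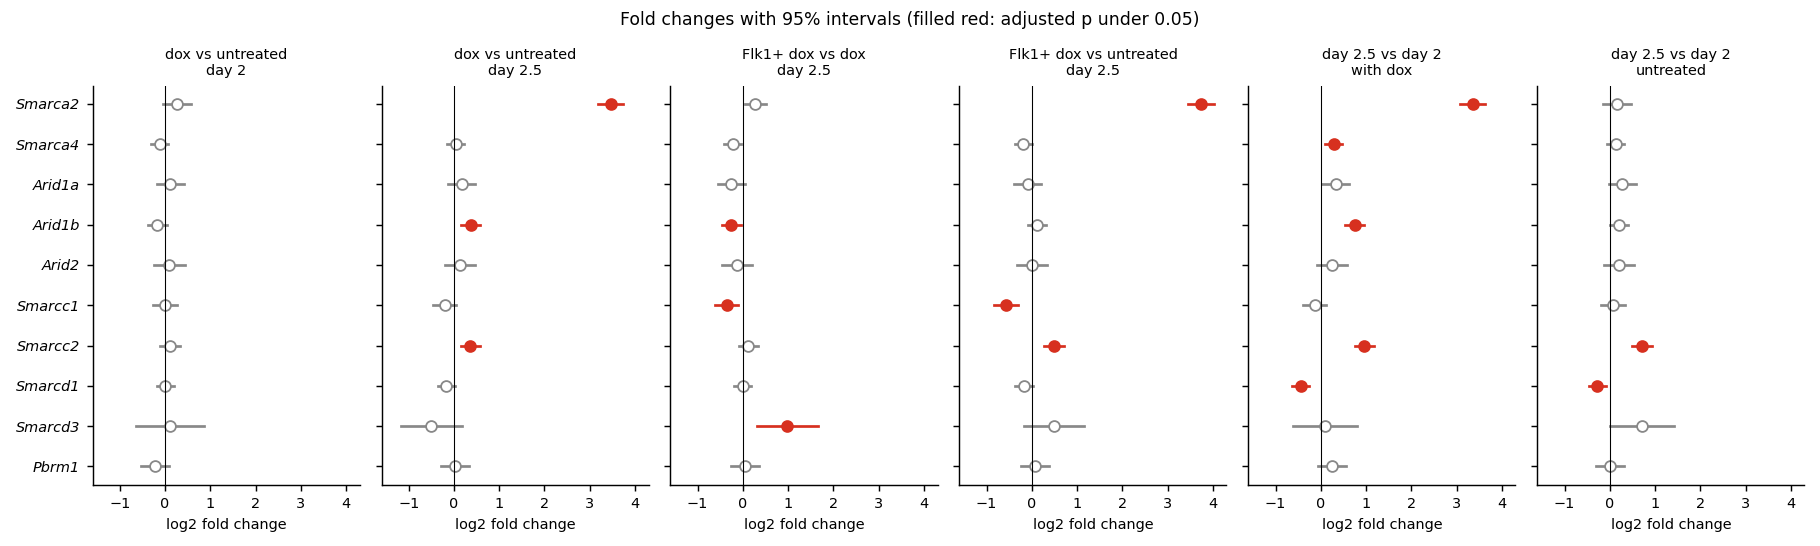
Log2 fold change of each member with its 95% interval in the comparisons named above each panel, filled red where the edgeR adjusted p is under 0.05. Smarca2 stands at 3.74 in Flk1-positive and 3.47 in doxycycline-treated against untreated samples of day 2.5, and the other 9 members lie within 1 log2 unit of 0.

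Counted over the 10 members, 3 rose and 0 fell in doxycycline-treated against untreated samples at day 2.5 (Smarca2, Arid1b and Smarcc2). Of all genes tested 29.9% were called there, 16.1% higher and 13.8% lower. In Flk1-positive against untreated samples 2 rose and 1 fell, where 55.3% of all genes were called, 28.6% higher and 26.6% lower. In Flk1-positive against doxycycline-treated samples 1 rose and 2 fell, where 41.8% were called, 20.5% higher and 21.3% lower. With doxycycline, 4 rose and 1 fell at day 2.5 against day 2, where 46% were called, 22.9% higher and 23.1% lower. Without it 1 rose and 1 fell, where 19.5% were called, 9.22% higher and 10.3% lower. The interaction of doxycycline and day was called higher for 2 members and lower for 0, where 12.1% of genes were called, 6.87% higher and 5.24% lower. With 2 to 5 of 10 members called, the counts stand near or below the background in these comparisons, and for the interaction 2 of 10 stand beside 12.1%. The median log2 fold change of the members was 0.09 for doxycycline at day 2.5 and 0.04 for Flk1-positive against untreated samples, beside 0.00 and 0.01 over all genes tested.

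At day 2 doxycycline changed 0 of the 10 members in edgeR, in DESeq2 and in limma-voom, 0 at an unadjusted p under 0.05, where edgeR called 4.67% of all genes, 3.11% higher and 1.56% lower. The outcome depended on which doxycycline-treated library was kept. Without replicate 1, Arid1a, Arid2 and Smarcc1 were called higher, and without replicate 2, Arid1a, Arid1b, Arid2, Smarcc1 and Pbrm1 were called lower. Calls over all genes moved as well, to 6.89% higher and 4.88% lower without replicate 1 and to 6.8% higher and 8.48% lower without replicate 2. Arid1a had 670 and 1027 CPM and Smarcc1 had 641 and 922 CPM in replicates 1 and 2 with doxycycline, against 779 and 787 CPM and 782 and 774 CPM without. The untreated values lay between those of the treated replicates for both genes.

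Compared per kb of exon, the order of levels in Flk1-positive samples was Smarca4 (90.6 CPM per kb), Arid1a (77.8), Smarcc1 (70.5), Smarcd1 (64.2), Arid2 (37.4), Smarcc2 (31.9), Pbrm1 (31.0), Smarca2 (9.12), Arid1b (9.04) and Smarcd3 (0.685). In untreated samples of day 2.5 Smarcc1 (105) and Smarca4 (103) led, and Smarca2 (0.681) stood with Smarcd3 (0.490) at the bottom. In Flk1-positive samples the library values of Smarcc2 and Pbrm1 overlapped, as did those of Smarca2 and Arid1b, and the other neighbours in that order did not overlap. In untreated samples Arid1b stood at 8.37 CPM per kb, above Smarca2 with no overlap. The order depends on the length used. With the longest transcripts Arid1a (109 CPM per kb) led in Flk1-positive samples, before Smarcc1 (95.6) and Smarca4 (92.0), whose library values overlapped, and neither Smarcc2 and Pbrm1 nor Smarca2 (22.0) and Arid1b (10.1) overlapped. In untreated samples of day 2.5 Smarcc1 (142) still led, before Arid1a (116) and Smarca4 (105), and Smarca2 (1.64) and Smarcd3 (0.664) were still lowest.

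Bcl11a and Dpf1 changed most among the remaining subunits of BAF and PBAF complexes, and both fell. Of 21 such genes, 20 were in the table and 19 were tested. In doxycycline-treated against untreated samples at day 2.5, 0 rose and 3 fell, with a median log2 fold change of -0.15, where 29.9% of all genes were called, 16.1% higher and 13.8% lower. The number that fell was 6 without either or both of the doxycycline-treated libraries of day 2, where 19.6% to 20.1% of all genes were called lower. In Flk1-positive against untreated samples 2 rose and 8 fell, with a median of -0.17, where 55.3% of all genes were called, 28.6% higher and 26.6% lower. The number that fell changed over the alternatives, as did the share of all genes called lower, which was 28.5% with length and GC trends removed. The medians over all genes tested were 0.00 and 0.01. Bcl11a, a zinc-finger subunit known from blood and neural cells, had 6.65 and 5.83 CPM in Flk1-positive and 22.6 and 29.8 CPM in doxycycline-treated libraries, against 47.9 and 51.2 CPM in untreated libraries. It fell by 2.98 ± 0.16 on the log2 scale in Flk1-positive (adjusted p = 4.05e-10, edgeR) and by 0.92 ± 0.14 in doxycycline-treated samples (adjusted p = 0.000102, edgeR). Dpf1, a neuronal subunit in mouse, had 2.64 and 2.07 CPM and 4.92 and 6.44 CPM in these treated groups, against 12.6 and 16.1 CPM, and fell by 2.59 ± 0.26 and by 1.34 ± 0.22 (adjusted p = 5.81e-07 and 0.000321, edgeR). The libraries of the 3 groups did not overlap for either gene, and both calls held in all alternatives run. Bcl11b, the paralogue of Bcl11a, fell by 0.93 ± 0.15 in Flk1-positive against untreated samples (adjusted p = 9.61e-05, edgeR). In doxycycline-treated against untreated samples it fell by 0.43 ± 0.15 (adjusted p = 0.0379, edgeR), a call lost without some single libraries, with adjusted p up to 0.255.

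Smarcb1 and Smarce1 encode subunits shared by the canonical BAF and PBAF forms. Smarcb1 had 116 and 125 CPM in Flk1-positive and 122 and 118 CPM in doxycycline-treated libraries, against 155 and 131 CPM in untreated libraries of day 2.5. In the same order of groups Smarce1 had 107 and 116 CPM and 102 and 101 CPM, against 99.5 and 101 CPM. Smarcb1 fell by 0.25 ± 0.10 on the log2 scale in Flk1-positive against untreated samples (adjusted p = 0.0497, edgeR), a call lost in limma-voom (0.0512), with adjusted p up to 0.404. Smarce1 was not called in either treated group (log2 0.15 in Flk1-positive and 0.01 in doxycycline-treated against untreated samples). Smarcd2, the paralogue of Smarcd1 and Smarcd3, had 106 and 109 CPM and 109 and 111 CPM, against 107 and 113 CPM, and was not called either.

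**Figure D4:**
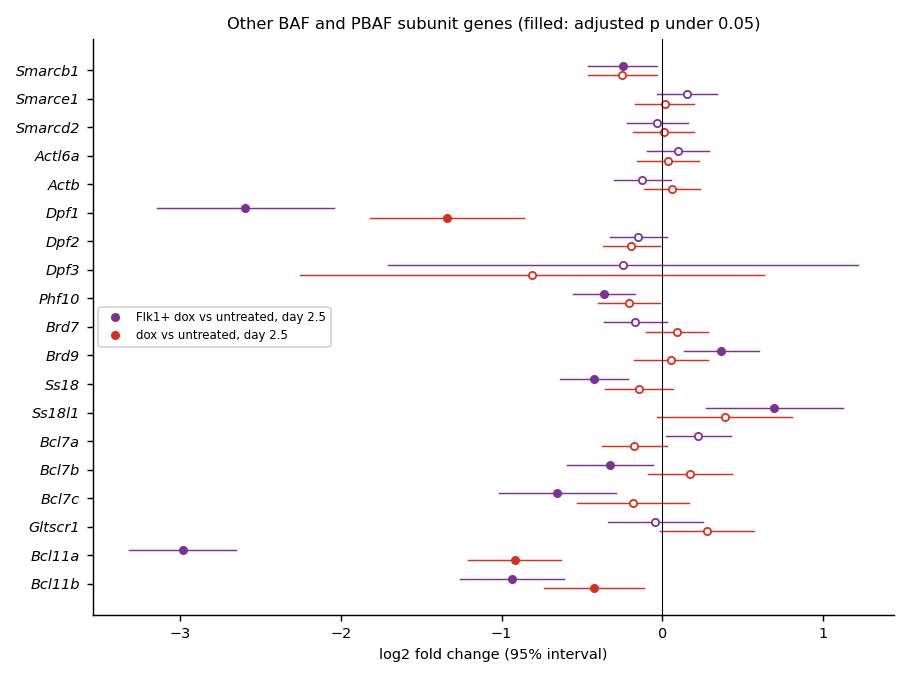
Log2 fold change with its 95% interval of 19 other BAF and PBAF subunit genes in Flk1-positive (upper point) and doxycycline-treated (lower point) against untreated samples of day 2.5, filled where the edgeR adjusted p is under 0.05. Bcl11a and Dpf1 lie farthest below 0, at -2.98 and -2.59 in Flk1-positive samples, and Brd9 and Ss18l1 are the filled points above 0.

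By Pearson correlation of log2 CPM over the 10 libraries, among 11387 genes compared, the genes most like Smarca2 were Cap2 (r = 0.997), Cd47 (0.996), Exoc6 (0.996), Actn1 (0.995) and Myct1 (0.995). These libraries share their groups, so the values describe the pattern and carry no test. Cap2 averaged 76.8 and 64.3 CPM in Flk1-positive and doxycycline-treated samples, against 18.3 CPM in untreated samples of day 2.5. Myct1 averaged 16.4 and 12.9 CPM there, against 0.0218 CPM in untreated samples of day 2.5, and had 0 counts in both day 2 groups. Among the members, Smarcc2 (r = 0.87) and Arid1b (0.78) were most like Smarca2, and Smarcd1 (-0.84) and Smarcc1 (-0.70) ran opposite to it.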

How the data were processed

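The authors deposited 1 table of raw counts of reads per gene for all 10 libraries. TopHat, HTSeq, DESeq2 and the build mm10 are named per the submitters' processing notes, with no versions or roles. For the gene annotation, the strand setting and reads with several hits, the sources used here give nothing. The 92 spike-in rows held 0 counts and were left out. Low genes were removed with filterByExpr in edgeR 4.0.16 (R 4.3.3; minimum count 10, minimum total 15), TMM factors were computed, and 1 quasi-likelihood fit covered all 10 libraries, with a mean for each group and 5 residual degrees of freedom. P-values of 7 comparisons were adjusted by Benjamini-Hochberg over all 14548 genes, with a threshold of 0.05. CPM divides counts by TMM-scaled library size. For a count of 0, an approximate 95% upper limit is 3 counts, or 0.0824 to 0.164 CPM. These limits cover counting error only. Standard errors come from the quasi-likelihood F statistic. Lengths come from GENCODE vM21 on GRCm38, the same assembly as mm10, and promoter windows from RefSeq.

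The 10 members and all gene lists were chosen with earlier results of these data known. Named are all members, Etv2 and Kdr, list genes past the threshold (at most 6 per list, smallest adjusted p) and core subunits, and the 5 genes most like Smarca2 among those with at least 5 CPM in the highest group (log2 CPM with a prior count of 2). The alternatives were DESeq2 size factors, DESeq2 1.42.0, limma-voom (limma 3.58.1), no filter on low counts, only the compared groups, the replicate number as a block, length and GC trends removed per library, each library left out and, added after seeing the data, both doxycycline-treated libraries of day 2 left out. The procedure was tested on simulated data.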

Additional observations from a re-analysis of the deposited data

Results flagged for a closer look

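The effect of doxycycline on Smarca2 differed between the days by 3.20 on the log2 scale (adjusted p = 6.2e-08, edgeR's interaction test), with 106 and 109 CPM in treated against 8.79 and 10.6 CPM in untreated libraries at day 2.5, and 9.54 and 11.5 CPM in treated against 9.44 and 7.91 CPM in untreated libraries at day 2. Both treated libraries of each day were above both untreated ones. The effect on Arid1b differed by 0.54 (adjusted p = 0.0177, edgeR), with 133 and 139 CPM in treated against 105 and 106 CPM in untreated libraries at day 2.5, and 73.5 and 88.6 CPM in treated against 92.2 and 90.6 CPM in untreated libraries at day 2. Treated libraries were thus higher at day 2.5 in 2 of 2 and lower at day 2 in 2 of 2. The difference of Arid1b at day 2 was not called (log2 -0.17, adjusted p = 0.414, edgeR), and its treated pair is the one whose replicates stood apart. The interaction call of Arid1b was lost when some single libraries were left out.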

How the results depend on the processing

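Smarca2 was called in every alternative for Flk1-positive against untreated samples, for doxycycline at day 2.5, for day 2.5 against day 2 with doxycycline and for the interaction. The counts of members called depended more on the processing, and the causes were not tested. Of members higher or lower with doxycycline at day 2 (0 and 0), leaving out 1 library gave 0 to 3 and 0 to 5 (1.25% to 6.89% and 0.386% to 8.48% of all genes). With doxycycline at day 2.5 (3 and 0), it gave 1 to 4 and 0 to 2 (10.4% to 20.2% and 6.88% to 19.6% of all genes), and the number lower was 1 with no filter on low counts, in the compared groups alone and with trends removed, and 2 without both doxycycline-treated libraries of day 2. For Flk1-positive against doxycycline-treated samples (1 and 2), leaving out 1 library gave 0 to 2 and 0 to 4 (12.7% to 25.2% and 14% to 25.6% of all genes). The number higher was 2 in limma-voom, in the compared groups alone, with trends removed and without both doxycycline-treated libraries of day 2. The number lower was 1 with DESeq2 size factors and in DESeq2, and 4 with no filter, in the compared groups alone, with trends removed and without both those libraries. For Flk1-positive against untreated samples (2 and 1), leaving out 1 library gave 2 to 2 and 1 to 3 (21.3% to 31.6% and 21.1% to 29.8% of all genes), and the number lower was 2 with no filter and in the compared groups alone, 4 with trends removed and 3 without both those libraries. For day 2.5 against day 2 with doxycycline (4 and 1), leaving out 1 library gave 3 to 7 and 1 to 2 (16.0% to 25.3% and 15.5% to 25.8% of all genes), and the number lower was 2 with trends removed. For day 2.5 against day 2 untreated (1 and 1), it gave 1 to 4 and 0 to 1 (2.39% to 15.1% and 2.15% to 16.9% of all genes), the number higher was 2 with no filter and 4 in the compared groups alone and without both those libraries, and the number lower was 0 with DESeq2 size factors and with no filter. For the interaction (2 and 0), it gave 1 to 6 and 0 to 2 (3.72% to 14.1% and 1.85% to 13% of all genes), and the number lower was 1 with trends removed. Without replicate 2 of the doxycycline-treated libraries of day 2, the log2 fold changes with doxycycline at day 2 turned to -0.22 for Arid1a (adjusted p = 0.0365, edgeR), -0.29 for Arid2 (0.00726) and -0.28 for Smarcc1 (0.00888). Over the alternatives their adjusted p reached 0.926, 0.952 and 1. Without replicate 1 they were 0.39, 0.41 and 0.24. The interaction of Arid2 was -0.27 (0.0472) without replicate 1 and 0.43 without replicate 2.

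The Smarca2 share of the ATPase pair was 19.3%, 14.5% and 1.54% in Flk1-positive, doxycycline-treated and untreated samples of day 2.5 and 1.96% and 1.51% in doxycycline-treated and untreated samples of day 2 with the longest transcripts. With trends removed it was 6.32% and 0.891% in doxycycline-treated samples of day 2.5 and day 2. Same-numbered replicates shared little deviation: the correlation was -0.034 to 0.098 over 10 pairs of groups. Such a correlation cannot tell if cultures were shared. With the replicate number as a block the members called were 3 higher and 0 lower for doxycycline at day 2.5, beside 16.6% and 14.4% of all genes. For Flk1-positive against doxycycline-treated samples they were 1 and 3, where Smarca4 was added, beside 21.1% and 21.9% of all genes. Of the single-member fold changes under the alternatives, 1104 kept their direction and side of the threshold, 78 passed it newly, 44 no longer passed and 4 turned. With 2 libraries per group, small differences are limited by the spread between replicates, and Smarcd3, at 29 to 84 reads per library, by its counts.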

Other observations

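Genes of other ATP-dependent remodellers were measured in the same libraries. Of 19 such ATPase genes, 18 were in the table and tested, and 1 rose and 2 fell in doxycycline-treated against untreated samples at day 2.5, where 29.9% of all genes were called. In Flk1-positive against untreated samples 3 rose and 5 fell, where 55.3% of all genes were called. The number that fell there was 10 with length and GC trends removed, where 28.5% of all genes were called lower. In the comparison of doxycycline at day 2.5 it was 6 with the trends removed, where 18.1% of all genes were called lower. Without both doxycycline-treated libraries of day 2 it was 4, where 20.1% of all genes were called lower.

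Chd2, a CHD-family remodeller, had 179 and 195 CPM in Flk1-positive and 148 and 150 CPM in doxycycline-treated libraries, against 94.0 and 89.9 CPM in untreated libraries of day 2.5. It rose by 1.02 ± 0.11 on the log2 scale in Flk1-positive (adjusted p = 9.44e-07, edgeR) and by 0.70 ± 0.11 in doxycycline-treated samples (adjusted p = 0.000126, edgeR). Chd3, an ATPase of the NuRD complex, had 37.1 and 38.9 CPM and 63.8 and 61.9 CPM in these treated groups, against 88.5 and 96.8 CPM, and fell by 1.29 ± 0.10 and by 0.56 ± 0.10 (adjusted p = 4.03e-08 and 0.000439, edgeR). For Chd2 and Chd3 the 3 groups did not overlap, and each of these calls held in all alternatives run. Smarca1, an ISWI ATPase, had 39.6 and 42.0 CPM in Flk1-positive libraries, against 83.3 and 94.6 CPM in untreated libraries, and fell by 1.13 ± 0.13 (adjusted p = 2.18e-06, edgeR). Ercc6, which acts in transcription-coupled repair, had 66.4 and 69.4 CPM in Flk1-positive libraries, against 40.4 and 37.3 CPM in untreated libraries, and rose by 0.80 ± 0.11 (adjusted p = 2.42e-05, edgeR). The summed marker levels given with Smarca2 moved in the same libraries, and their part in these values was not tested.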
